A study of Mus musculus with 3 samples.

Results

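The genes described here are 10 genes of type 2 immunity, the arm of the immune system that acts at barrier surfaces against parasites and allergens and in tissue repair. They were taken by symbol from a list: the cytokines Il4, Il5, Il13, Il9, Csf2 and Areg, the neuropeptide gene Calca, the alarmin Tslp, and the receptor chains Il4ra and Il13ra1. All 10 were found among the 31053 genes of the count matrix, and 9 had at least 1 unique molecular identifier (UMI, a counted RNA molecule) in the cells kept. The samples were gallbladders of male C57BL/6 mice, an inbred strain, in 3 groups: vehicle by oral gavage for 6 weeks, nanoplastics by oral gavage for 3 weeks, and nanoplastics by oral gavage for 6 weeks. Each group was 1 droplet library of 3′ ends from 10 pooled gallbladders digested with trypsin, so a group had no replicate and single mice could not be told apart. Barcodes carry a library number, and no label ties a number to a group. Exposed and vehicle mice were therefore not compared, and values are given for libraries 1, 2 and 3, which are unassigned samples and not replicates.

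Type 2 responses start when epithelium, mesenchyme or tuft cells, a chemosensory epithelial cell type, release the alarmins thymic stromal lymphopoietin (Tslp), interleukin 33 or interleukin 25. Group 2 innate lymphoid cells, lymphocytes without antigen receptors that live in barrier tissues, answer them with interleukins 5 and 13, and T helper 2 cells, mast cells and basophils add interleukin 4. Interleukin 5 keeps eosinophils alive, and interleukins 4 and 13 act on epithelium, smooth muscle and macrophages through receptors that share the chain made from Il4ra. With Il13ra1 that chain binds both cytokines, and with the common gamma chain, which lymphocytes use, it binds interleukin 4.

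Cells were assigned to classes by sums of marker genes that do not include the 10 genes, and each class name below stands for cells that passed its marker gate. Clusters were made from 2000 variable genes, and the 10 genes were not removed before these were picked. Where cells with a member fell among clusters is therefore not independent of the member. Libraries 1, 2 and 3 kept 4263, 10933 and 9797 cells, 24993 in all, at medians of 10381, 9330 and 2288 UMIs per cell, and 21383 cells were assigned. The innate lymphoid cell (ILC) class held 279 cells without a UMI of Cd3d, Cd3e, Cd3g or Trac. Of these, 164 lay in 1 cluster with Gata3, Calca and Il1rl1 among its leading genes, and 80 and 31 lay in 2 clusters made mostly of T cells. Trbc2, a T-cell receptor beta gene, had a UMI in 29.4% of the ILC class, and the part of T cells with no CD3 molecule counted was not tested. Within the class, 112 cells with at least 2 of 8 group 2 markers (such as Il1rl1, Il17rb and Klrg1) are called group 2 ILC, 31 in library 1, 47 in library 2 and 34 in library 3. T cells numbered 1159 and mast cells 31. The mast cells carried Cpa3 in 31, Tpsb2 in 31 and Mcpt4 in 30, and no cell class could be named basophil, since the 4 cells left by that gate had no UMI of Mcpt8 or Prss34. The eosinophil gate, which included Siglecf, Ccr3 and Epx, took 0 cells. Library 1 also held 95 cells with rod photoreceptor genes, which fell in a cluster of their own, 90 of them unassigned, and 138 of the 145 cells of a cluster with a median of 567 UMIs, of which 126 passed as macrophages. Between 15 and 22 barcode sequences were shared by each pair of libraries.

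Of the cytokines, 4 lie close together on mouse chromosome 11 (GRCm38, GENCODE M21). Il4 (53602982 to 53618669, minus strand), Il13 (53631324 to 53634702, minus strand), Il5 (53720794 to 53725106, plus strand) and Csf2 (54247271 to 54249667, minus strand) fall within 646.686 kb, and 12.654 kb separate Il4 from Il13. The 150 bases upstream of the start site are shown for Il5 and Il13, neighbours read mainly in ILC, and for Areg, which was also high in epithelium. They are from RefSeq (GRCm38.p6), with promoters matched for 9 of the 10 genes. Letters run 5′ to 3′ on the gene's strand, and capitals mark matches on either strand to a short word for GATA factors (AGATAA is the first of these, AGATAG is the next, then comes TGATAA and last stands TGATAG), to the TATA word TATAAA and to the cyclic AMP response element TGACGTCA.
Il5 (chr11:53720644-53720793, plus strand): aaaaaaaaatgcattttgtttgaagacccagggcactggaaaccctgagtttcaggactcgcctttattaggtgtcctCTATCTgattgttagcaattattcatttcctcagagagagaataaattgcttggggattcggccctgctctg
Il13 (chr11:53634703-53634852, minus strand): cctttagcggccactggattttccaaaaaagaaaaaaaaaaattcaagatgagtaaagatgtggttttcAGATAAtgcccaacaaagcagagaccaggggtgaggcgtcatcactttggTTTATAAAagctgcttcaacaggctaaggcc
Areg (chr5:91139449-91139598, plus strand): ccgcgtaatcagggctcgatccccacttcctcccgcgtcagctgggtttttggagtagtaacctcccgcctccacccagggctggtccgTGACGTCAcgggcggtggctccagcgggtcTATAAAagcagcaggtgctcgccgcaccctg
Il5 held a GATA word on the opposite strand 72 to 67 bases before its start, and Il13 held one on its own strand at 81 to 76 bases. Such a word stood in 16.0% of 32851 promoters of the same length. The element TGACGTCA in Areg, 61 to 54 bases before the start, was in 1.36% of promoters, and the TATA word, present in Il13 and Areg, was in 7.57%, where capitals in Il13 join a match on each strand. The AP-1 word TGANTCA, in 4.24% of promoters, was searched as well and had no match in these 3. The core word of NFAT factors, GGAAA, in 37.6% of promoters, matched in Il5 and Il13 and is not in capitals. The window of Csf2, also highest in ILC, had a match to GGAAA and to none of the other words. A match describes letters and is not evidence of binding.

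Cells of the ILC class carried most of the cytokine genes. A gene counted as present in a class at 10 CPM and 20 UMIs or more, where CPM is the summed UMIs of the gene in the cells of a class divided by all UMIs of those cells and multiplied by 1000000. By that rule 7 of the 10 genes were present in ILC (Il4, Il5, Il13, Areg, Il4ra, Csf2 and Calca), against 13.7% of all genes. In T cells 5 were present (Il4, Areg, Il4ra, Csf2 and Calca), against 23.7%. In epithelium 3 were present (Areg, Il4ra and Il13ra1), against 26.7%, and in stroma 3 (Il4ra, Il13ra1 and Tslp), against 33.9%, shares near those backgrounds. In mast cells with the 4 unnamed cells the count was 0 of 10, against 1.06%, with 35 cells and few UMIs. The median level over the 10 genes in ILC was 233 CPM, and the median over all 31053 genes was 0.0 CPM, or 16.1 CPM over the genes with a UMI in ILC. Intervals in parentheses are exact 95% intervals, Poisson for CPM and Clopper-Pearson for shares, and both cover counting error only.

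**Figure D1:**
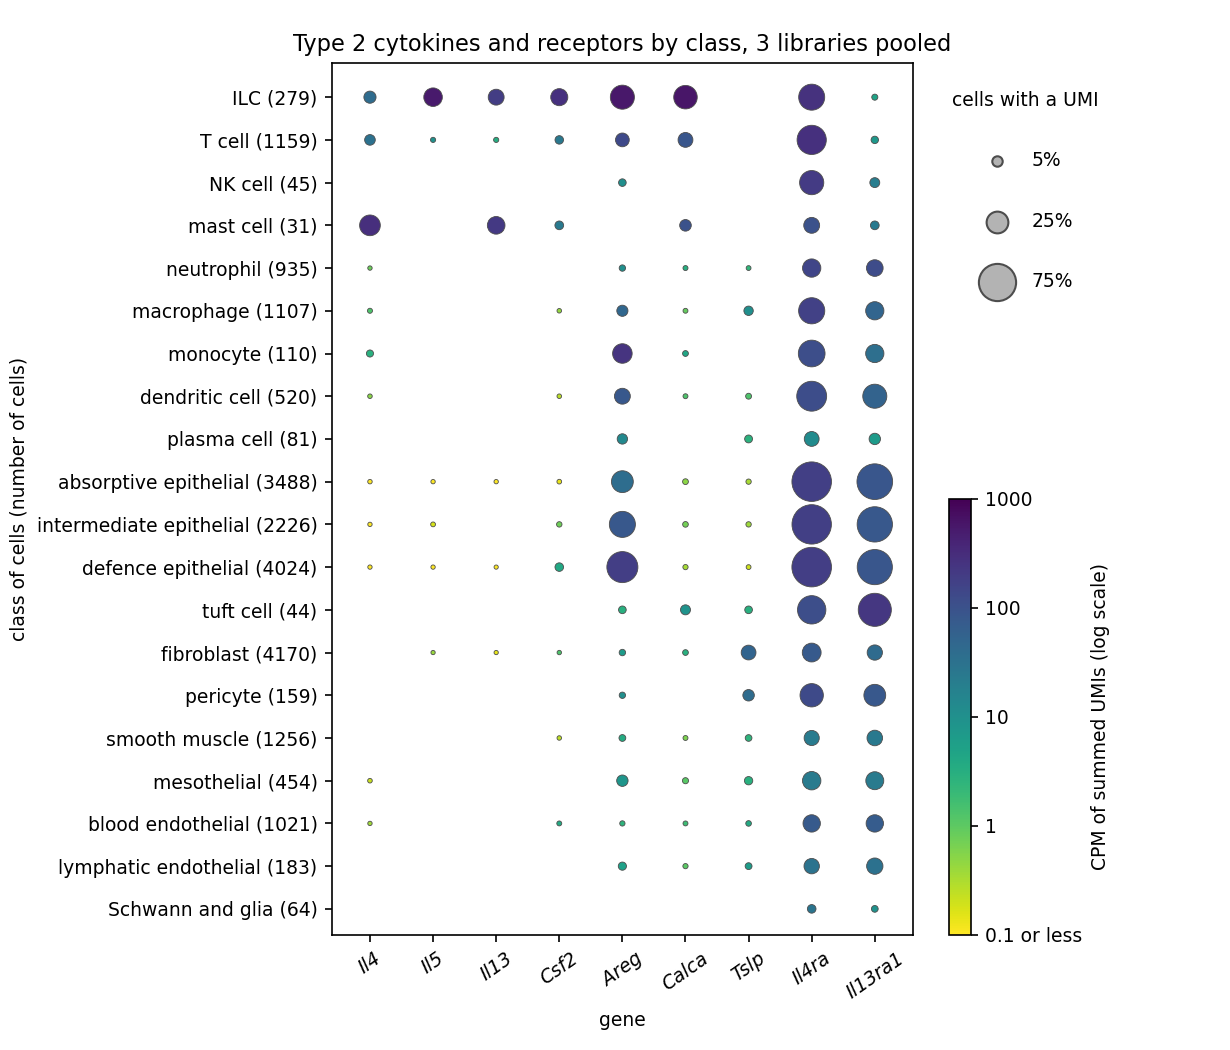
Dot plot of 9 genes (horizontal) in 20 classes of cells (vertical, number of cells in parentheses), 3 libraries pooled. Dot area gives the percent of cells with at least 1 UMI and colour gives CPM on a log scale. Il5, Csf2 and Calca are darkest in ILC, Il13 in ILC and the 31 mast cells, and Tslp in fibroblasts and pericytes. Il4 is darkest in the mast cells, followed by ILC and T cells at close levels, and Il4ra covers nearly all classes.

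Il5, the eosinophil growth and survival factor, was read almost entirely in ILC. Its level there was 529, 685 and 147 CPM in libraries 1, 2 and 3. Pooled, it was 523 CPM (468 to 584), with UMIs in 50 cells (17.9%). Group 2 ILC stood at 955 CPM (848 to 1072), and the other 167 ILC at 113 CPM (79.2 to 157). Library 2 was highest and library 3 lowest, also among group 2 ILC alone (699, 1734 and 236 CPM). Without library 2, group 2 ILC read 604 CPM. A few cells held much of the RNA. The 5 cells with the most Il5 UMIs contributed 43.1% of the 325 in ILC, and the highest cell had 39. T cells had 32 Il5 UMIs in 6 cells, 9.82 CPM, and 25 of those UMIs were in 1 cell. All 32 lay in 23 cells gated as T cells that fell in the cluster with Gata3, Calca and Il1rl1 among its leading genes. Most ILC lay in that cluster, and the other clusters of T cells had 0 UMIs. The clustering did not leave out Il5, so this placement is a description. Library 1 held 31 of the 32. All 6 of these cells carried Gata3, the master transcription factor of type 2 lymphocytes, Il1rl1, the interleukin 33 receptor, and Cd3g, and none carried Cd3d or Cd3e. Gata3 and Il1rl1 were ILC gate markers, and a cell led by those markers was called a T cell on 1 UMI of Cd3g. Their presence in these cells was therefore favoured by the gate. In epithelium Il5 stayed below 0.2 CPM in each of the absorptive, intermediate and defence kinds.

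Il13, which drives mucus production, smooth muscle contraction and tuft cell expansion, followed the same classes. It was at 182, 247 and 89.6 CPM in ILC of libraries 1, 2 and 3, and at 193 CPM (160 to 231) pooled, with UMIs in 36 cells (12.9%). Group 2 ILC had 337 CPM (275 to 409) and other ILC 56.5 CPM (33.5 to 89.3). By library, group 2 ILC read 241, 606 and 118 CPM, and 216 CPM without library 2. T cells had 11 UMIs in 6 cells, all 6 with the gate marker Gata3, 3.38 CPM, and 10 of the 11 lay in the Gata3 cluster. Among the 31 mast cells 5 had Il13, 9 UMIs in all or 220 CPM (100 to 417), an interval that spans the level in ILC. The 6 mast cells of library 2 read 358 CPM and the 25 of library 3 read 168 CPM. All those mast cells were in libraries 2 and 3, since library 1 had no cell in that class.

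Il4, the cytokine that sets T helper 2 fate and the switch to immunoglobulin E, was spread over 3 kinds of lymphoid and granulocytic cells. Mast cells had 12 UMIs in 7 of 31 cells, 293 CPM (151 to 511), and 3 of those 7 also had Il13. The 6 mast cells of library 2 read 716 CPM and the 25 of library 3 read 134 CPM, and 1 cell held 6 of the 12 UMIs. The 4 unnamed cells of the basophil gate had 9 UMIs in 3 cells, 704 CPM (322 to 1336). ILC had 25 UMIs in 20 cells, 40.3 CPM (26.1 to 59.4), and T cells had 105 UMIs in 61 cells, 32.2 CPM (26.4 to 39.0), so these 2 classes were not separated by their intervals. In T cells the libraries gave 40.1, 32.1 and 3.21 CPM, and library 3 held 1 of the 105 UMIs. Most of this RNA, 100 UMIs, was in 1 T-cell cluster with Ccl5 and Trbc2 among its leading genes. Another T-cell cluster, with Il17a among its leading genes, had 1 UMI. Of the 61 Il4-positive T cells 21 (34.4%) had Zbtb16, a factor of innate-like T cells, against 22.1% of all T cells. Cd4 was in 9 of them (14.8%), against 13.3% of all T cells, while 2 had Il5 and 2 had Il13. Cd8a and the regulatory T cell factor Foxp3 had 0 UMIs in the 61 cells. Both were rare over all T cells too, with a UMI in 5.87% and 2.07%. Of T cells with Il4, 0 of 61 had Areg (3 counts of the total would be 4.92% of cells with a UMI), against 109 of the other 1098 T cells.

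Csf2 makes the granulocyte-macrophage colony-stimulating factor, a growth factor of macrophages, dendritic cells and granulocytes. In ILC of libraries 1, 2 and 3 it read 73.0, 516 and 97.8 CPM. Pooled, the level was 277 CPM (237 to 322), with UMIs in 42 cells (15.1%), and library 2 supplied 144 of the 172 UMIs. Without library 2 the level was 81.9 CPM. Group 2 ILC read 84.3, 1213 and 236 CPM in the same order of libraries, so the high value of library 2 was there in that subset too, and without library 2 they read 115 CPM. T cells had 25.2 CPM (20.0 to 31.2), with 25 of their 82 UMIs in 1 cell and 40 in the 23 cells of the Gata3 cluster. Defence epithelium, the kind gated by antimicrobial and mucosal genes such as Lcn2, Tff2 and Reg3g, read 4.01 CPM (3.55 to 4.50) with a UMI in 124 of 4024 cells, while absorptive epithelium read 0.135 CPM (0.0617 to 0.256). Both epithelial levels were under the 10 CPM used to call a gene present. By number of UMIs, the 9782 epithelial cells held 320 of the 639 Csf2 UMIs in kept cells (50.1%), 281 of them in defence epithelium. ILC held 26.9%.

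Il9, a growth factor of mast cells and innate lymphoid cells, had 0 UMIs in all 27700 barcodes. The floor of 3 counts is 4.83 CPM in ILC and 0.921 CPM in T cells, so Il9 was not detectable at this depth. The receptor gene Il9r was present in ILC, with 20 UMIs and 32.2 CPM.

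Calca encodes calcitonin and, by alternative splicing, calcitonin gene-related peptide, a neuropeptide that also acts on ILC. Counts of 3′ ends summed per gene do not separate these products here. In ILC its level was 547, 473 and 1002 CPM in libraries 1, 2 and 3, and 604 CPM (544 to 668) pooled, with UMIs in 82 cells (29.4%). Library 3, the lowest for Il5, Il13 and Areg, was the highest for Calca, also among group 2 ILC, with 723, 1117 and 2237 CPM. T cells had 86.3 CPM (76.5 to 97.0) with UMIs in 129 cells (11.1%), and the libraries were close together at 95.5, 79.5 and 90.0 CPM. In the 175 T cells with Trdc, the gamma-delta receptor gene, and no UMI of Cd4, Cd8a or Cd8b1, the level was 98.2 CPM (72.9 to 129), and in the 95 with Cd8a or Cd8b1 and no Cd4 it was 42.8 CPM (22.1 to 74.8). T cells with Zbtb16 were positive in 19.1% of 256 cells. The 23 T cells that fell in the Gata3 cluster, where Calca is a leading gene, held 42 of the 281 UMIs of T cells, 486 CPM (350 to 657). The T-cell clusters with Ccl5 and with Il17a among their leading genes read 45.4 and 120 CPM. All other classes of 50 cells or more were below 5 CPM, so the T-cell share of 11.1% stood beside 0.547% in defence epithelium and 0.863% in fibroblasts, at median depths of 2345, 13314 and 2513 UMIs.

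**Figure D2:**
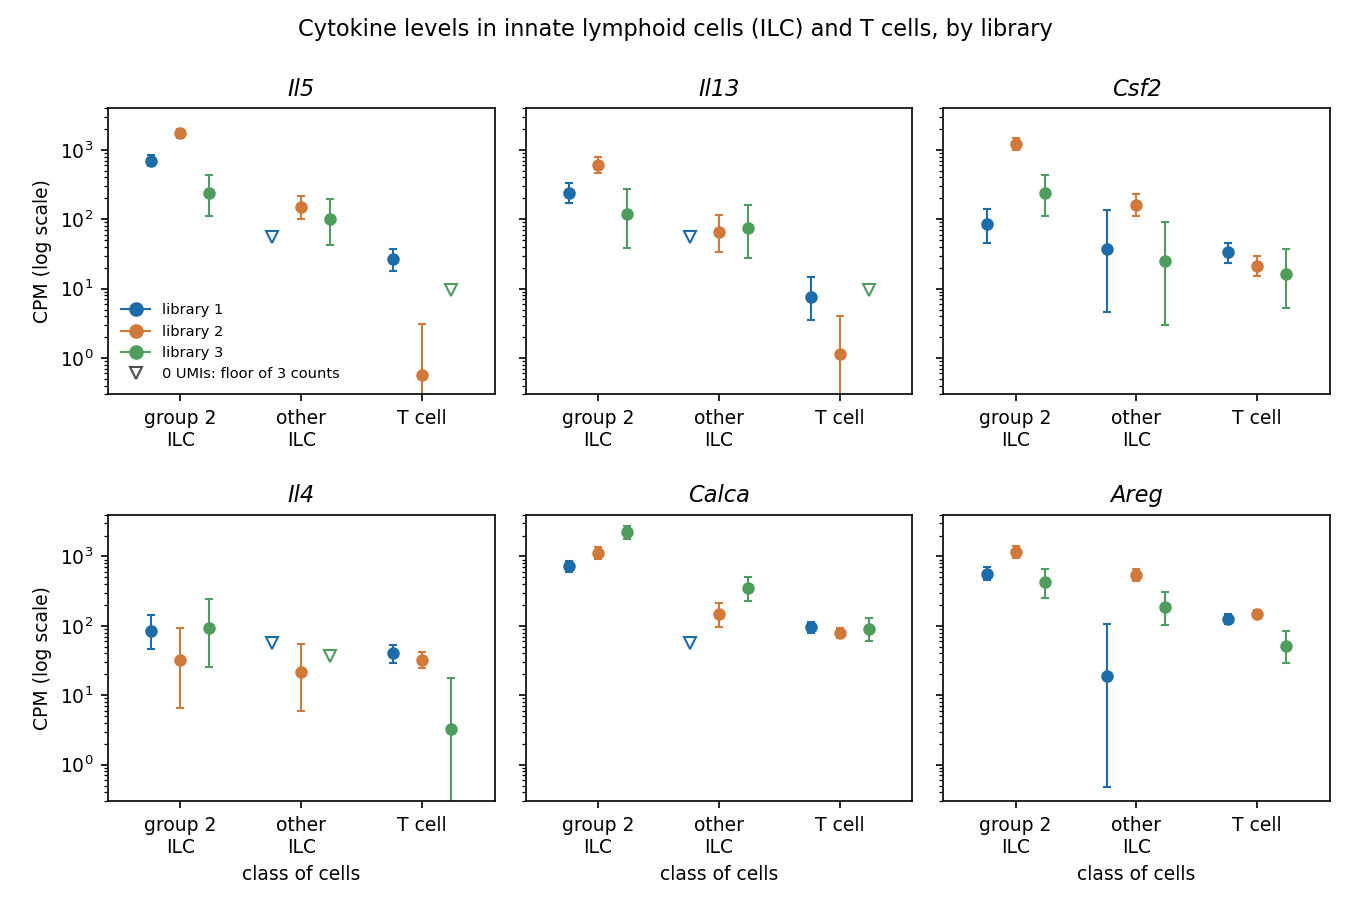
CPM (vertical, log scale) of 6 genes in group 2 ILC, other ILC and T cells (horizontal) of libraries 1, 2 and 3, with exact Poisson 95% intervals; an open triangle marks 0 UMIs and stands at the floor of 3 counts. Il5, Il13 and Calca are higher in group 2 ILC than in T cells of the same library, and Calca in group 2 ILC is highest in library 3 at 2237 CPM, where Il5 is lowest at 236 CPM.

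The cytokine genes often met in the same ILC. Of the 50 Il5-positive ILC, 23 (46.0%) had Il13, against 13 of the 229 others (5.68%). Areg was in 38 of the 50 against 48 of 229, Csf2 in 23 against 19, and Calca in 28 against 54. Il4 was in 9 against 11. Group 2 ILC made up 40 of the 50 Il5-positive ILC and 33 of the 36 ILC with Il13, so the 2 sides differ in kind of ILC. Il5-positive cells were also deeper, with a median of 2223 UMIs against 1713. The parts of ILC kind and of depth in these counts were not tested. Counting Il4, Il5, Il13, Areg, Csf2 and Calca, 131 of 279 ILC had none, 69 had 1, 29 had 2, 22 had 3, 18 had 4, 9 had 5 and 1 had all 6. The 9 cells with 5 of them had a median of 2797 UMIs against 1632 in those with none. Among the 112 group 2 ILC, 22 had none.

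Areg, which encodes amphiregulin, a ligand of the epidermal growth factor receptor that helps epithelium repair, was the only cytokine gene of the list present in both lymphocytes and epithelium. In ILC it read 433, 753 and 269 CPM in libraries 1, 2 and 3, 544 CPM (488 to 606) pooled, with UMIs in 86 cells (30.8%). In the same order of libraries, group 2 ILC stood at 566, 1159 and 424 CPM and the other ILC at 18.8, 546 and 187 CPM, the first of these on 1 UMI. T cells read 126, 150 and 51.4 CPM, 132 CPM (120 to 145) pooled. Defence epithelium read 276, 150 and 68.7 CPM, 187 CPM (184 to 190) pooled, with UMIs in 51.9% of cells. Intermediate epithelium followed at 80.8 CPM (78.0 to 83.7) and absorptive epithelium at 38.1 CPM (36.6 to 39.6). Tuft cells, with 44 cells, had 1 UMI (2.96 CPM, 0.0750 to 16.5). The order defence, intermediate, absorptive was the same in each library, and library 3 was lowest in all 3 kinds. Within defence epithelium the largest cluster (2644 cells) read 223 CPM and the next (713 cells) 81.8 CPM. By number of UMIs, epithelium held 89.8% of the Areg UMIs in kept cells and ILC 1.61%.

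Epithelial RNA was also counted in lymphocyte droplets. Krt8, an epithelial keratin, stood in ILC at 6.00% and in T cells at 5.52% of its epithelial level, and the epithelial Areg level scaled by those shares is 6.43 CPM in ILC and 5.92 CPM in T cells, against the 544 and 132 CPM measured. By library the scaled values were 5.50, 6.57 and 3.17 CPM in ILC and 5.87, 6.12 and 2.53 CPM in T cells. They rest on 1 gene, and the part of free RNA was not tested beyond it. After each cell was thinned to 1000 UMIs, Areg had a UMI in 23.5% of 230 ILC (18.2 to 29.5), 5.48% of 1114 T cells (4.21 to 6.98), 11.4% of 3943 defence epithelial cells (10.5 to 12.5) and 3.83% of 3446 absorptive cells (3.21 to 4.53), with 49, 45, 81 and 42 shallower cells left out.

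Among T cells Areg was uneven. Of the 24 T cells with Foxp3, 13 (54.2%) had Areg, at 415 CPM, and of the 50 with Il1rl1 22 (44.0%), at 516 CPM, against 9.40% of all T cells. Foxp3-positive cells were deeper, with a median of 3455 UMIs against 2345 in all T cells. The 23 T cells that fell in the Gata3 cluster with most ILC held 62 of the 430 Areg UMIs of T cells, 718 CPM (550 to 920). The T-cell clusters with Ccl5 and with Il17a among their leading genes read 97.3 and 145 CPM. How many of the 50 cells with Il1rl1 lay in the Gata3 cluster was not counted. The T cells with Trdc defined above read 277 CPM (233 to 327), and those with Cd8a or Cd8b1 read 7.14 CPM (0.865 to 25.8), close to the level scaled from epithelium. The Trdc value came from 141 UMIs in 19 cells and was 35.6 CPM, 2 UMIs, in library 3. Outside lymphocytes and epithelium, Areg read 251 CPM (215 to 291) in 110 cells gated as monocytes, with 317, 424 and 119 CPM in the 3 libraries. Dendritic cells read 81.1 CPM (72.4 to 90.6). Macrophages read 48.4 CPM (42.2 to 55.3), and 49.1 CPM without the cluster of library 1 that stood apart. Fibroblasts, mesothelium and blood endothelium were below 10 CPM.

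**Figure D3:**
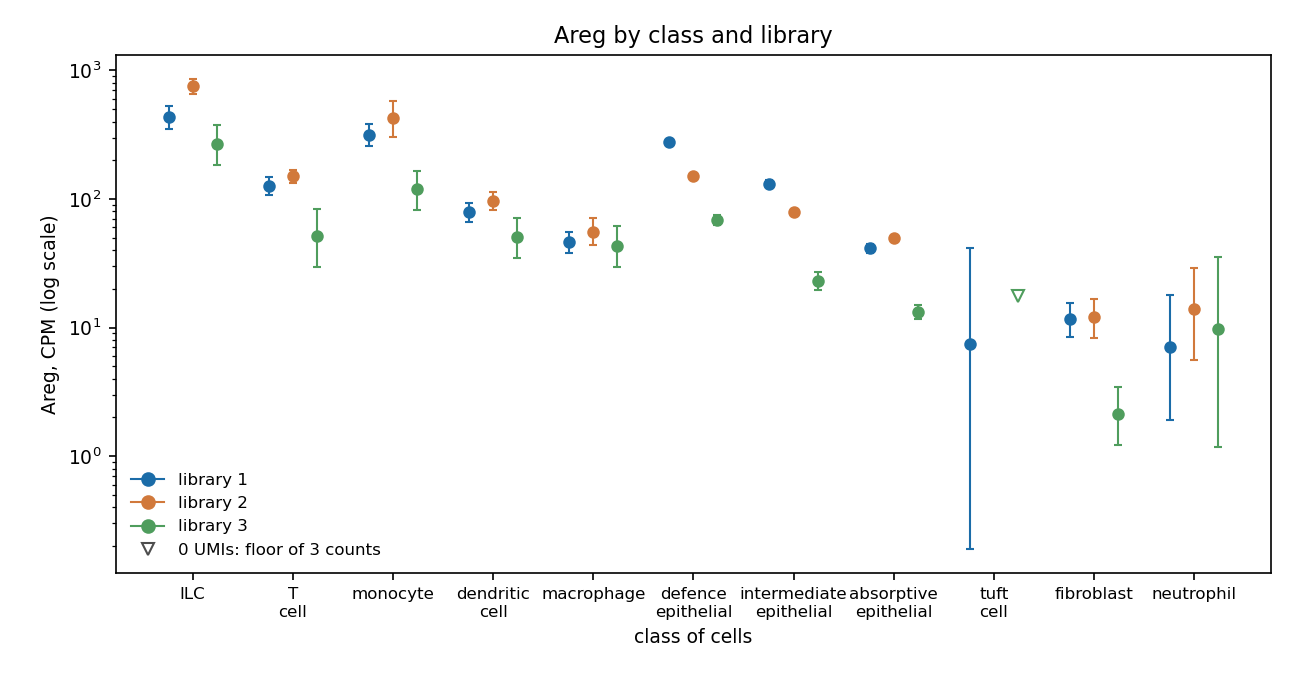
Areg CPM (vertical, log scale) in 11 classes (horizontal) for libraries 1, 2 and 3, with exact Poisson 95% intervals; a library with fewer than 10 cells in a class is not drawn and an open triangle marks 0 UMIs at the floor of 3 counts. ILC lie above T cells in each library, and defence epithelium is highest in library 1 at 276 CPM and lowest in library 3 at 68.7 CPM.

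Tslp, the alarmin best known from keratinocytes and airway epithelium, was in the stroma here. Fibroblasts read 80.1, 50.7 and 39.4 CPM in libraries 1, 2 and 3, 52.7 CPM (49.0 to 56.6) pooled, with UMIs in 459 of 4170 cells (11.01%). Pericytes, the mural cells of small vessels, read 39.8 CPM (25.2 to 59.8) on 23 UMIs, an interval that overlaps that of fibroblasts. Macrophages read 10.4 CPM (7.67 to 13.9), with UMIs in 43 of 1107 cells, and 10.6 CPM without the cluster that stood apart, while 0 of 1159 T cells had a UMI, where 3 counts of the total would be 0.259% of cells with a UMI. Absorptive, intermediate and defence epithelium read 0.330, 0.387 and 0.1996 CPM, each with UMIs in under 1% of cells. Of the 15 UMIs in intermediate epithelium 11 were in library 3, where it read 1.58 CPM. Of the fibroblast clusters, the one with Sfrp1, Mgp and Dcn among its leading genes read 70.1 CPM (62.4 to 78.5). The one with Inmt and Gdf10 among them read 59.8 CPM (50.7 to 70.0), and the one with Ccl11 and Postn 46.1 CPM (40.8 to 51.8). The one with Clec3b, Mfap5 and Pi16 among them read 11.2 CPM (5.804 to 19.6). Their order was not the same in each library. The Sfrp1 cluster read 150, 103 and 39.1 CPM in libraries 1, 2 and 3 and the Inmt cluster 58.1, 11.6 and 61.8 CPM, the first 2 of these from 33 and 28 cells. The Ccl11 cluster read 62.9, 36.8 and 25.3 CPM. Single cells carried up to 75 UMIs.

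**Figure D4:**
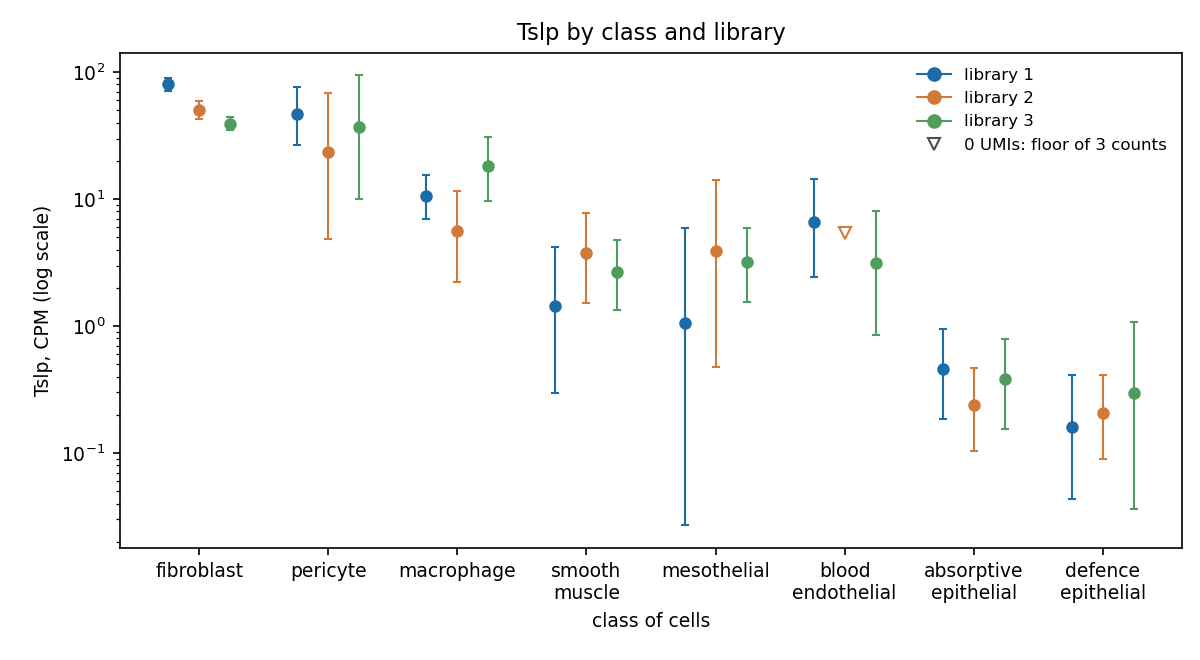
Tslp CPM (vertical, log scale) in 8 classes (horizontal) for libraries 1, 2 and 3, with exact Poisson 95% intervals; an open triangle marks 0 UMIs at the floor of 3 counts. Fibroblasts lie between 39.4 and 80.1 CPM, and absorptive and defence epithelium below 0.5 CPM, in each library, and intermediate epithelium, at 1.58 CPM in library 3, is not drawn.

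The receptor chain gene Il4ra was read in nearly every class. T cells (301, 268 and 206 CPM in libraries 1, 2 and 3, 274 CPM pooled, 256 to 293) and ILC (272 CPM, 233 to 316) were highest and were not separated by their intervals. Defence, absorptive and intermediate epithelium followed at 190, 180 and 179 CPM, with UMIs in 84.3% to 85.0% of cells. Macrophages read 168 CPM (156 to 180), 169 CPM without the cluster that stood apart, and neutrophils 153 CPM (132 to 176). Fibroblasts read 75.3 CPM (70.9 to 80.0), smooth muscle 22.8 CPM (19.7 to 26.4) and plasma cells 12.2 CPM (6.50 to 20.9). After thinning to 1000 UMIs per cell, 22.9% of T cells, 23.0% of ILC and 17.5% of defence epithelial cells had a UMI, so the larger epithelial share in all UMIs went with the depth of those cells.

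Il13ra1, the partner chain, had another distribution. The 44 tuft cells had the highest value, 234 CPM (185 to 292), with 246, 317 and 210 CPM in libraries 1, 2 and 3, the second from 8 cells. Neutrophils read 120 CPM (102 to 141), with 111, 82.1 and 239 CPM in the 3 libraries. Defence, absorptive and intermediate epithelium were at 86.2, 85.6 and 82.7 CPM, pericytes at 83.1 CPM (61.3 to 110) and blood endothelium at 70.3 CPM (60.7 to 81.0), neighbours in the order whose intervals overlap. ILC had 3 UMIs (4.83 CPM, 0.996 to 14.1) and T cells 24 (7.37 CPM, 4.721 to 10.96), while the epithelial level scaled by Krt8 is 5.12 CPM in ILC and 4.71 CPM in T cells. Lymphocytes, the classes with the most Il4ra, were thus among those with the least Il13ra1. Both chains had a UMI in 60.4% of defence and 61.4% of absorptive epithelial cells, in 14 of 44 tuft cells and in 2 of 279 ILC. For each 100 Il4ra UMIs there were 208 of Il13ra1 in tuft cells, 45.3 in defence epithelium, 78.5 in neutrophils and 2.69 in T cells. This ratio is compared between classes only, since counts of 3′ ends do not rank 2 genes against each other.

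**Figure D5:**
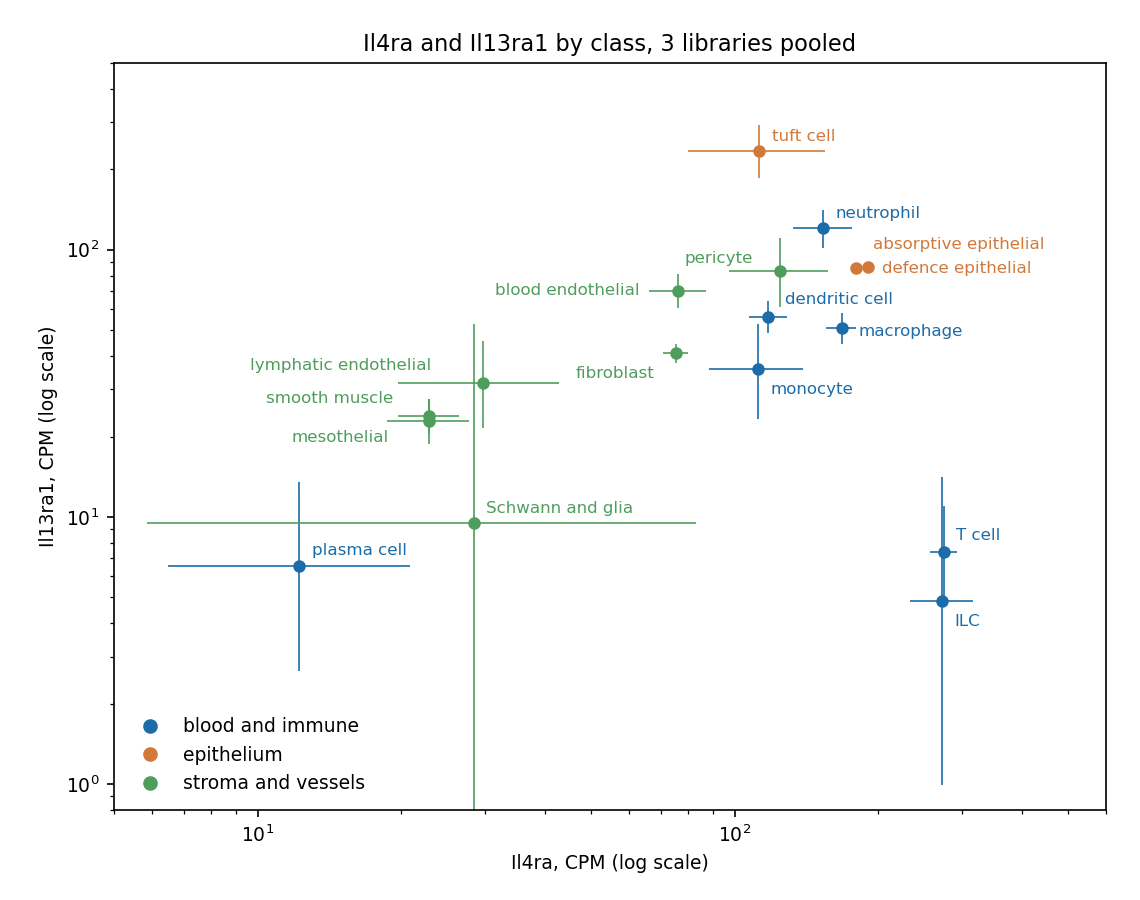
Il13ra1 CPM (vertical, log scale) against Il4ra CPM (horizontal, log scale) in the classes of at least 50 cells and the 44 tuft cells, with exact Poisson 95% intervals, 3 libraries pooled; intermediate epithelium is left out because it lies on the other epithelial points. T cells and ILC stand apart at the lower right, with over 270 CPM of Il4ra and under 8 CPM of Il13ra1.

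Among all genes, the same rule called 13.7% present in ILC, 23.7% in T cells, 26.7% in epithelium and 33.9% in stroma, which pools 7 classes, and the counts of other genes of the pathway are read against these shares. In a list of 9 alarmins and upstream signals, 6 were present in stroma, above the background, while 2 in epithelium and 1 each in ILC and T cells were near or below it. Il33, a nuclear alarmin, led in mesothelium at 125 CPM (115 to 136) and fibroblasts at 103 CPM. Il25, the tuft cell alarmin, read 77.1 CPM in tuft cells and 0.280 CPM or less in each class of 50 cells or more. Vip, a neuropeptide, read 511 CPM in glia on 54 UMIs, Adm 225 CPM in lymphatic endothelium, Calcb, the relative of Calca, 164 CPM in mesothelium, and Tgfb1 304 CPM in ILC. Of 19 receptor genes of type 2 responders, 9 were present in ILC, 8 in T cells and 11 in stroma, above the backgrounds, and 4 in epithelium, near it. The 9 in ILC and the 8 in T cells include the ILC gate markers Il1rl1, Il17rb and Il7r. Their presence in both classes was favoured by the gate, since cells led by ILC markers could also be called T cells. The 4 in epithelium include Il17rb, a gate marker of tuft cells. No count without gate markers was made. Il1rl1 was at 469 CPM in ILC, where it also served as a gate marker, and at 2440 CPM in the 31 mast cells. Ramp3, a partner chain of calcitonin family receptors, led in T cells at 964 CPM with 430 CPM in ILC. Il7r, a gate marker of ILC, led in T cells at 1022 CPM, with 833 CPM in ILC. Ramp2, a relative of Ramp3, read 88.9 CPM in fibroblasts, the class that led Tslp. Calcrl, the receptor that Ramp1 turns to calcitonin gene-related peptide, led in lymphatic endothelium at 367 CPM and was 24.2 CPM in ILC, and Ramp1 led in smooth muscle at 177 CPM. Csf2rb, the signalling chain for Csf2, led in neutrophils at 671 CPM. Il13ra2, Il5ra, Nmur1 and Ptgdr2 were present in no class of 50 cells or more.

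Of 10 epidermal growth factor receptor ligands and receptors, 6 were present in epithelium and 7 in stroma, above the backgrounds, and 1 in each lymphocyte class, near or below it. Hbegf, a ligand, led in absorptive epithelium at 2218 CPM, with 83.7 CPM in ILC, 98.5 CPM in T cells and 123.3 CPM in neutrophils. It was the gene counted as present in ILC and in T cells. Krt8 read 280, 258 and 492 CPM in ILC, T cells and neutrophils, against 4948 CPM in absorptive epithelium. The part of free RNA in these Hbegf values was not tested. In the same list, Nrg1 led in fibroblasts at 157 CPM and Erbb3 in glia at 142 CPM, on 15 UMIs. Egfr, the receptor Areg binds, led in fibroblasts at 87.7 CPM, with 46.0 CPM in defence epithelium. Of 16 signalling and transcription factor genes, 13 were present in ILC, 16 in T cells, 9 in epithelium and 14 in stroma, all above the backgrounds. Rora at 2052 CPM and Gata3 at 936 CPM led in ILC. Both were ILC gate markers counted among the 13 in ILC and the 16 in T cells, and no count without gate markers was made. Cish, a target of interleukin signalling through Stat5, read 361 CPM in ILC. Maf led in lymphatic endothelium at 1620 CPM and Socs3, a feedback inhibitor of cytokine signalling, in glia at 1392 CPM, with 520 CPM in fibroblasts. Jak2, a receptor kinase, read 452 CPM in neutrophils. Of 19 genes known to respond to interleukins 4 and 13, 2 were present in ILC (Arg1 and Chil4), 3 in T cells, 2 in epithelium and 6 in stroma, shares at or below the backgrounds. These compartments leave out macrophages, monocytes and dendritic cells. In any class of 50 cells or more 13 of the 19 were present, a count for which no background share was made. Retnla led in the cells gated as monocytes at 10047 CPM, and Chil4, a chitinase-like protein, in defence epithelium at 3061 CPM. Mrc1 led in macrophages at 1151 CPM, where it was a gate marker, so that lead was favoured by the gate. Chil4 also read 46.1 CPM in T cells and 102 CPM in neutrophils, whose Krt8 stood at 5.52% and 10.5% of the epithelial level. The part of free RNA in these values, and in the count of Chil4 as present in ILC, was not tested. Arg1 read 93.4 CPM in ILC, Ccl11, an eosinophil attractant, 864 CPM in fibroblasts, and Postn 964 CPM in smooth muscle. Retnlb had 0 UMIs in every class, and Clca1, Muc5ac, Itln1, Fcer2a and Alox15 were not present in a class of 50 cells or more.

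The genes most like each member were ranked by Pearson correlation of log2(CPM + 10) over the 17 classes of at least 50 cells, given as a description. The classes share libraries and depth, and for Il5, Il13, Csf2, Il4 and Calca the value rests on 2 lymphocyte classes. Il13 was closest to Il5 (r = 0.997), then to Ccdc184 (0.991) and Arg1 (0.967). Il5 was closest to Ccdc184 (0.996), Arg1 (0.979) and Csf2 (0.976). Csf2 was closest to Il22 (0.988), Arg1 (0.9848) and Ccdc184 (0.980), and Calca to Il22 (0.991), Gata3 (0.978) and Tespa1 (0.977). Il4 was closest to Cxcr6 (0.996), Tnfsf11 (0.994) and Trdv4 (0.993), genes nearly equal in T cells and ILC. Cxcr6 and Gata3 were ILC gate markers, so their levels in the lymphocyte classes were favoured by the gate. Tslp was closest to Gpr153 (0.941), Samd5 (0.939) and Ccl11 (0.931), all highest in fibroblasts. Areg (Mrpl32 0.887, Gm9493 0.885, Nubp1 0.864), Il4ra (Cmip 0.861, Ube2j2 0.854) and Il13ra1 (Bcl3 0.861, Pik3c2a 0.856, Tuba1c 0.831) had no gene above 0.9.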

How the data were processed

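Gallbladder cells of 3 pooled groups were measured by droplet RNA sequencing. The deposited values are raw UMI counts per gene and barcode, made with Cell Ranger 6.1.1 on GRCm38 (mm10) per the submitters' processing notes, and the annotation version is not given in the sources used here. Total counts per library were 72943584, 121349261 and 58172348 UMIs. From these counts, cells with at least 300 genes, at most 20% mitochondrial UMIs and a Scrublet doublet score of at most 0.25 were kept, which removed 1015, 668 and 1024 barcodes (doublets 3.94%). Doublet scoring and Leiden clustering at resolution 1.0 used scanpy 1.11.5 with seed 0.

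Classes came from 23 marker lists. A cell joined the class whose summed log-scaled markers, divided by their 99.9th percentile, reached 0.25 and 1.2 times the next lineage, with at least 3 markers detected. For cells that led on the ILC, T-cell or natural killer (NK) cell list, the class was then set by other rules. A cell with 1 UMI or more of Cd3d, Cd3e, Cd3g or Trac became a T cell, whichever of these lists led. A cell with none became ILC if it had at least 3 ILC markers and an ILC score not below its NK score. In all, 3610 cells (14.4%) stayed unassigned while 885 assigned cells lay near the limits. Epithelial kinds differ by 1.5 times in absorptive or defence score. After the values were seen, mast cells were set to need 2 of Cma1, Mcpt4, Tpsb2, Tpsab1 and Kit, and monocytes 2 of Ly6c2, Ccr2, Plac8, Chil3 and F13a1. Besides the 10 members, the rule named the 3 highest genes of each of 5 pathway lists, the list gene highest in each member's leading class, and the 3 genes most like each member, of which 1 is not reported here. Il25, Calcb, Il1rl1, Il9r, Calcrl, Ramp1, Egfr, Gata3, Cish, Postn and the list genes given as not present were chosen after their values were seen. The members and lists were chosen with earlier results of these data known. No test between groups was made, since no label ties a library to a group. The gate, fold estimates and intervals were tested on simulated data. Alternatives changed the filters, gate, clusters, pooling, thinning and single libraries.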

Additional observations from a re-analysis of the deposited data

How the results depend on the processing

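No paired analysis was possible because each group was 1 library and no library could be tied to a group. With other filters, a stricter gate, clusters in place of gates, equal weights for libraries, means over cells or a library left out, 7 to 9 of the 9 detected genes were led by the same class, and the counts of genes present by compartment stayed within 1.5 times. Il4 was led by T cells without library 1 and with clusters, and Il4ra by ILC in 4 of these settings. Of 108 alternative CPM values in the leading classes 30 left the main interval, as did 34 of 117 shares. Clusters gave ILC levels of 183 CPM for Il5, 69.2 for Il13, 295 for Areg and 313 for Calca, because a cluster of 505 cells, of which 453 had passed as T cells, took the ILC name. Csf2 in ILC was 81.9 CPM without library 2 and 388 CPM without library 1. Leaving out the cluster with rod genes or the cluster of 145 cells with a median of 567 UMIs, or asking for 2 CD3 UMIs, left all 9 leading classes as they were. These settings were added after seeing the data. Depth leaves Il9 at its floor and the 31 mast cells with few UMIs.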
